A study of Homo sapiens with 9 samples.

Results

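The genes described here write, copy, oxidise and remove methyl groups on cytosine. They are DNMT1, DNMT3A, DNMT3B, DNMT3L, TET1, TET2, TET3, UHRF1 and TDG, 9 of the 18417 genes measured. They were taken by gene symbol and were read from every probe set whose only gene symbol was one of them, 11 of 19460 such probe sets. All 9 genes were measured, and UHRF1 and TET2 had 2 probe sets each. H9 cells are an established line of human embryonic stem cells. Their H9-TCF7L1 derivative carries a transgene for TCF7L1, a TCF/LEF factor that mostly represses Wnt targets. All 9 arrays came from this derivative, which was the background of every group. Untreated cells were in mTeSR1 medium, a second group spent 48 h in PS (primitive streak) differentiation medium, and the remaining group had PS medium together with 1 ug/ml doxycycline (Dox) for 48 h, with 3 arrays in each. No array was labelled as doxycycline without PS medium or as cells without the transgene, and no label said whether the line was a single clone or whether replicates were separate cultures, so the p-values rest on the spread between these arrays, and that spread may be technical only.

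DNA methylation is set on new sites by DNMT3A and DNMT3B, which the inactive relative DNMT3L stimulates, and is copied after replication by DNMT1, which UHRF1 guides to hemimethylated sites. TET enzymes oxidise the methyl group, and TDG excises oxidised bases, which base excision repair then replaces. Pluripotent stem cells are known for high DNMT3B and TET1, and cells leaving pluripotency are known to lower DNMT3B.

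TCF7L1 itself (probe set 8043114) had a deposited linear intensity of 3718, 3878 and 3572 on the untreated arrays, 1275, 1542 and 1611 on the PS arrays and 13100, 12433 and 2699 on the doxycycline arrays. Doxycycline replicate 3 was therefore far below the other doxycycline arrays, and the calls of the 9 genes that change without it, and counts in the related lists that move by over 1.5 times, are named beside their values. Of the pluripotency markers, 14 of 16 were measured, and their summed intensity ran from 48970 to 51320 in untreated cells, 30210 to 34120 in PS medium and 36390 to 37850 with doxycycline. The summed intensity of 16 streak markers ran from 3316 to 3400, from 101000 to 122800 and from 31160 to 47330 in the same order. For 11 endoderm markers the sums ran from 2501 to 2644, from 23310 to 46410 and from 7178 to 11290, and for 13 of 14 amnion and trophectoderm markers from 3685 to 4106, from 19700 to 21080 and from 36890 to 42460. Single markers did not all move with these sums. Between PS medium and untreated cells 7 amnion and trophectoderm markers rose and 2 fell. With doxycycline against PS medium 5 pluripotency markers rose and 2 fell, and 1 streak marker rose and 14 fell. Markers of neuroectoderm (12 genes) ran from 8991 to 9731, from 5231 to 6344 and from 6263 to 6720, but 1 of the 12 rose and 2 fell in PS medium (median log2 change -0.05). One of these was the bright SFRP1, which read 3787, 4092 and 4164 on the untreated and 330, 728 and 1016 on the PS arrays. Fibroblast markers (10 genes) ran from 6442 to 6632, from 3473 to 3735 and from 3488 to 4320, with 1 of 10 higher and 3 lower in PS medium (median -0.11). Among these THY1 read 4281, 4358 and 4130 on the untreated and 1382, 1481 and 1111 on the PS arrays, whereas POSTN rose from PS medium to doxycycline by 2.14 on the log2 scale. POSTN read 63.3, 73.5 and 34.5 on the PS and 182, 178 and 785 on the doxycycline arrays, with replicate 3 far above the others. Endothelium and blood markers (10 genes) ran from 4377 to 4780, from 5802 to 6493 and from 3158 to 3725. In PS medium 2 of these 10 were higher and 2 lower (median 0.02). KDR, the brightest of them, ran from 2288 to 2588, from 3839 to 4482 and from 1251 to 1806. SFRP1, THY1, POSTN and KDR were named after their values were seen. The sums moved with the groups, their part in the results below was not tested, and in such bulk RNA fewer cells of a type and less RNA per cell cannot be told apart.

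Between PS medium and untreated cells, DNMT3B fell and TET2, DNMT3L and TDG rose, whereas DNMT1, DNMT3A, TET1, TET3 and UHRF1 did not pass the threshold. With doxycycline against PS medium alone, TET1 was the 1 gene of the 9 that passed, and it was lower. Against untreated cells, doxycycline cells had lower DNMT3B and TET1 and higher TET2. Each change is a difference of log2(intensity + 16), tested with limma over all 18417 genes. The fit held no term for the replicate number, which changes some calls as given below, and genes were called at an adjusted p under 0.05. On that rule 4 of 9 genes were called between PS medium and untreated cells, beside 29.8% of all genes (14.2% higher and 15.7% lower). Between PS medium with and without doxycycline 1 of 9 was called, beside 17.3% of all genes (8.91% higher and 8.44% lower), and between doxycycline and untreated cells 3 of 9, beside 30.3% (15.3% higher and 14.9% lower). TET2 was the gene that passed and also changed at least 2-fold, in PS medium against untreated cells, beside 5.64% of all genes. DNMT3L, a dim gene, was just under at 1.98-fold, and the offset of 16 lowers the change of dim genes. None of the 9 passed with at least 2-fold in the doxycycline comparisons, beside 3.33% against PS medium and 5.2% against untreated cells. The arrays did not overlap for 6 of 9 genes between PS medium and untreated cells, beside 43.3% of all genes. They did not overlap for 2 of 9 between doxycycline and PS medium, beside 30.9%, and for 6 of 9 between doxycycline and untreated cells, beside 45%. The comparisons share samples in pairs, and each is given by its own values. The median change of the 9 was 0.12 between PS medium and untreated cells (all genes -0.01), -0.05 with doxycycline against PS medium (all genes 0.00) and 0.14 with doxycycline against untreated cells.

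**Figure D1:**
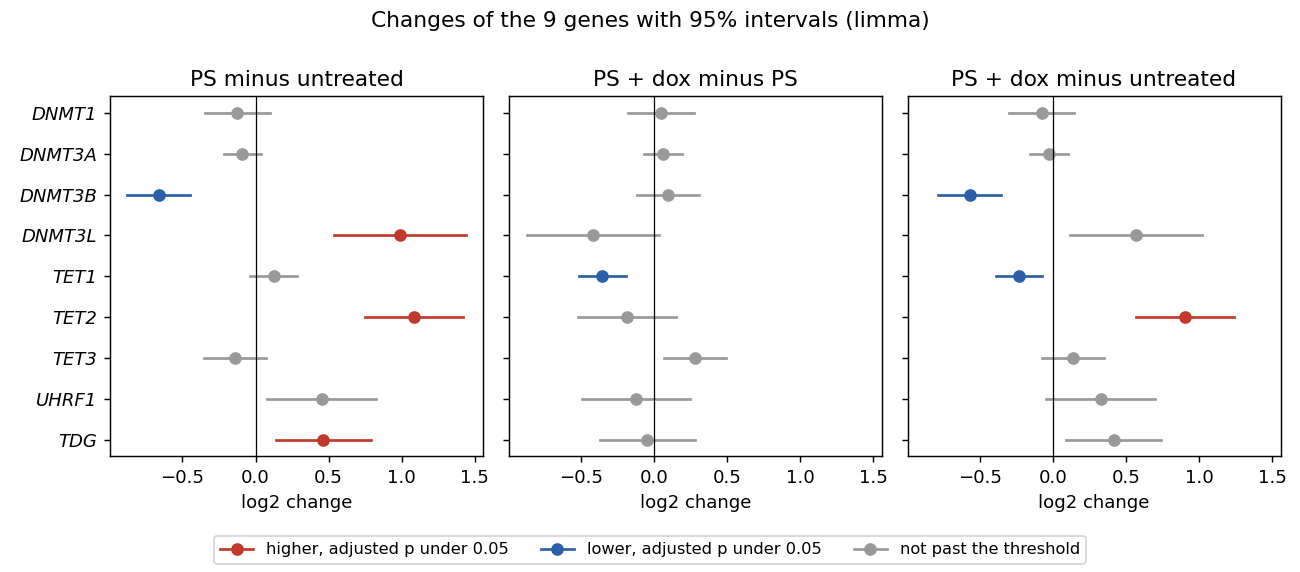
Log2 change of each of the 9 genes (points) with its 95% interval from limma (lines) in the 3 comparisons, 3 arrays per group. DNMT3B lies below 0 and TET2 above 0 in both comparisons with untreated cells, and TET1 is the gene called lower with doxycycline against PS medium alone.

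DNMT3B (probe set 8061746, chr20:32762385-32809356 in GRCh38.p14) is a de novo methyltransferase that is abundant in pluripotent cells. It read 4618, 4917 and 4235 on the untreated arrays, 3004, 3349 and 2473 on the PS arrays and 2985, 3187 and 3039 on the doxycycline arrays. Every untreated array was above every array of the other groups, and the PS and doxycycline arrays overlapped. DNMT3B fell by 0.66 on the log2 scale in PS medium (SE 0.10, n = 3 per group, limma adjusted p = 0.000436), which is 1.58-fold. With doxycycline it was 0.09 ± 0.10 (SE) above PS medium (adjusted p = 0.597), with a 95% interval of the difference from -0.12 to 0.31. Against untreated cells it was lower with doxycycline as well, by 1.48-fold (log2 -0.57 ± 0.10, adjusted p = 0.00123).

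The promoter window of DNMT3B is shown because DNMT3B is the methyltransferase that fell. RefSeq's promoter table for GRCh38.p14 holds 250 bases before to 50 after each listed start. It had 19 windows for 8 of the 9 genes, with none for DNMT3L. The start listed for DNMT3B lies inside the annotated gene (chr20:32779602-32779901, plus strand). The window is written 5′ to 3′, with capitals for the letters CTTTG, the core of the motif that TCF/LEF factors bind, or for CAAAG, the same letters on the other strand.
DNMT3B: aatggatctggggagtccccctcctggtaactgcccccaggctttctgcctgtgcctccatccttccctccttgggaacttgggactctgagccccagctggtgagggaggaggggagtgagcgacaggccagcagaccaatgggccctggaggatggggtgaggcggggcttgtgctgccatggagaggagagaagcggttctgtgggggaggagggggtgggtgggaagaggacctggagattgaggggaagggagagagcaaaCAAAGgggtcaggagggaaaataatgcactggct
The window held 1 match, which lies after the start and reads CTTTGTT on the minus strand. Of 35116 promoter windows of this length, 47.5% held CTTTG on either strand, and 13.8% held one of 4 longer forms that contain it (CTTTG followed by AA, AT, TA or TT, with 5.2% for CTTTGTT). The window held 3 CG pairs, beside a median of 14. Over the 19 windows of the 8 genes, 9 held CTTTG and 2 held a longer form. A match describes letters and not a bound site.

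DNMT3L (probe set 8070730, chr21:44246339-44261897) encodes the catalytically inactive partner of DNMT3A and DNMT3B. It was dim, in the lowest 25% of genes by mean value. It read 53.1, 58.2 and 60.3 on the untreated arrays, 90.9, 125 and 175 on the PS arrays and 69.0, 93.6 and 110 on the doxycycline arrays. Both PS groups lay above the untreated arrays without overlap, and they overlapped each other. DNMT3L rose by 0.99 ± 0.20 in PS medium (1.98-fold, adjusted p = 0.00386). Replacing 16 by 64 in the log gave 0.68, and replacing it by 1 gave 1.16. With doxycycline it was -0.42 ± 0.20 from PS medium (adjusted p = 0.215) and 0.57 ± 0.20 from untreated cells (adjusted p = 0.0578). With the replicate number as a block both of these passed, at limma adjusted p = 0.0418 and 0.00643. The difference between doxycycline and PS medium also passed without PS replicate 1 (-0.64, adjusted p = 0.0402). That between doxycycline and untreated cells passed without PS replicate 1 (adjusted p = 0.0229), PS replicate 3 (0.0203) or doxycycline replicate 1 (0.74, 0.0271).

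DNMT3A (probe set 8050813, chr2:25227874-25342590) encodes the other active de novo enzyme. It read 1271, 1365 and 1299 on the untreated arrays, 1223, 1313 and 1236 on the PS arrays and 1291, 1355 and 1263 on the doxycycline arrays, and the 3 groups overlapped. PS medium differed from untreated cells by -0.09 ± 0.06 (adjusted p = 0.294, 95% interval -0.22 to 0.04), and that between doxycycline and PS medium was 0.06 ± 0.06 (adjusted p = 0.560). Doxycycline differed from untreated cells by -0.03 ± 0.06 (adjusted p = 0.763).

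Changes within the DNMT3 family were compared array by array. The log2 value of DNMT3L minus that of DNMT3B on the same array rose by 1.65 ± 0.35 (SE) from untreated cells to PS medium, and that of DNMT3A minus that of DNMT3B by 0.57 ± 0.12. Neither difference overlapped between the groups. Each gave p = 0.1 in a two-sided exact permutation test, the smallest that 3 against 3 arrays allow, and adjusted p = 0.138 over the 18 such tests made in the DNMT3 and TET families, so none of the 18 could pass.

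DNMT1 (probe set 8033912, chr19:10133346-10194953) encodes the maintenance methyltransferase. It read 2571, 2700 and 2258 on the untreated arrays, 2250, 2628 and 2132 on the PS arrays and 2429, 2558 and 2080 on the doxycycline arrays. The groups overlapped in every comparison. The differences were -0.12 ± 0.10 for PS medium against untreated cells (adjusted p = 0.420, 95% interval -0.35 to 0.10), 0.05 ± 0.10 for doxycycline against PS medium (adjusted p = 0.832) and -0.08 ± 0.10 for doxycycline against untreated cells (adjusted p = 0.624).

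UHRF1 (probe set 8024900, chr19:4903080-4962154) encodes the reader of hemimethylated DNA that recruits DNMT1. It read 968, 1146 and 842 on the untreated arrays, 1276, 1542 and 1331 on the PS arrays and 1259, 1626 and 946 on the doxycycline arrays. All PS arrays were above all untreated arrays, and the doxycycline arrays spanned both ranges. The difference of 0.45 ± 0.17 between PS medium and untreated cells missed the threshold (adjusted p = 0.0667). It passed without doxycycline replicate 2 (adjusted p = 0.0263) or replicate 3 (0.0176), and in a fit of those groups alone (0.0145). With the replicate block it passed as well (limma adjusted p = 0.00379). The spread among doxycycline arrays was the largest of the 3 groups (log2 SD 0.38, against 0.13 in PS medium and 0.20 in untreated cells).

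With doxycycline UHRF1 differed by -0.13 ± 0.17 from PS medium (adjusted p = 0.696) and by 0.33 ± 0.17 from untreated cells (adjusted p = 0.178). Without doxycycline replicate 3, the array with low TCF7L1, those differences were 0.07 (adjusted p = 0.806) and 0.52 (adjusted p = 0.0174). The difference from untreated cells also passed with the replicate block (limma adjusted p = 0.0195). The second UHRF1 probe set (8032922) ran from 153 to 199 over the 9 arrays and disagreed with the first: its change in PS medium was -0.02 ± 0.10 (adjusted p = 0.921 over 19460 probe sets).

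**Figure D2:**
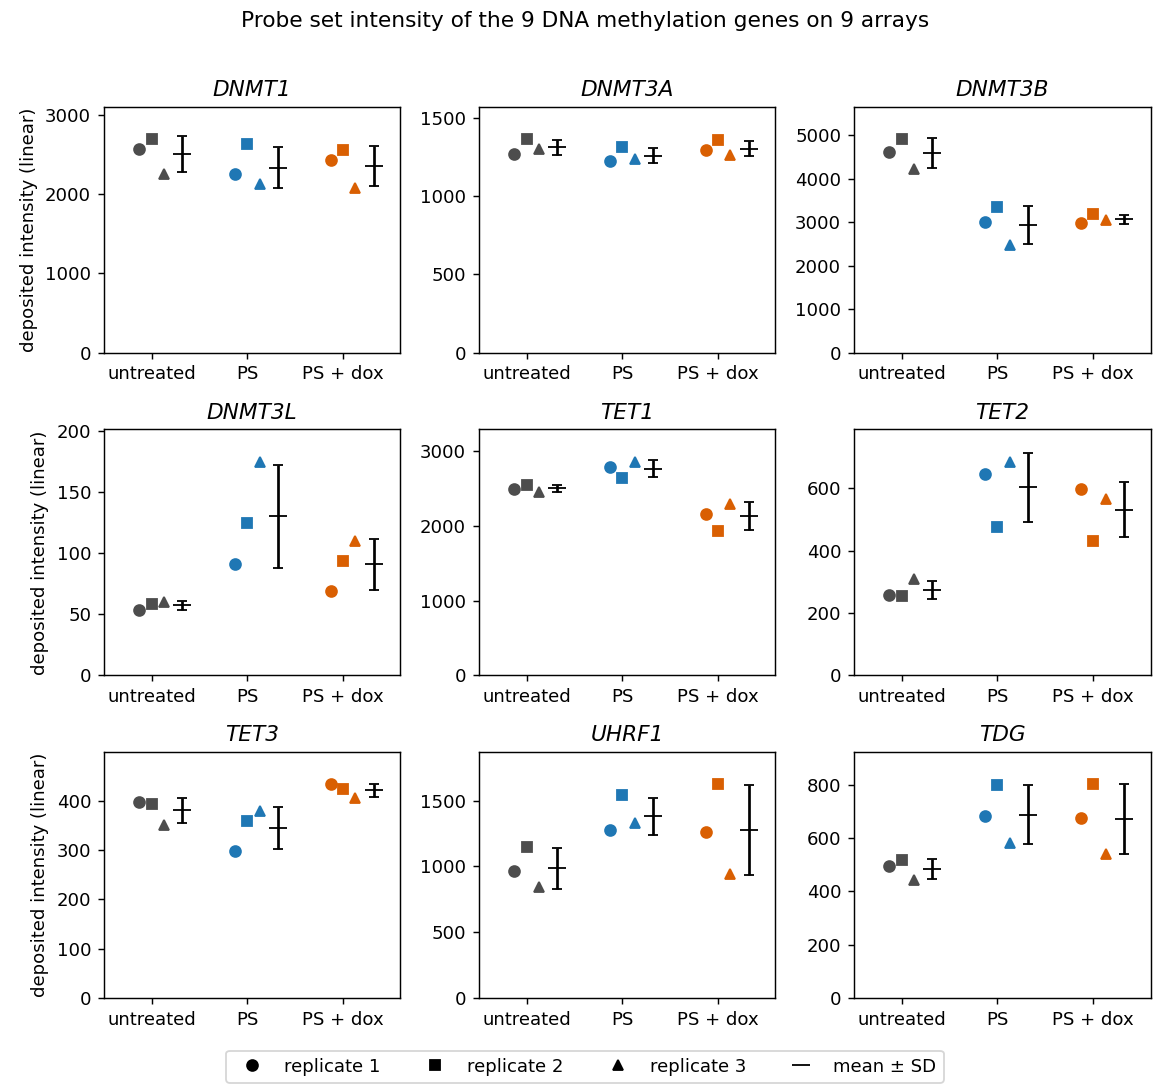
Deposited linear intensity of each of the 9 genes on every array (symbols by replicate number, colours by group), with the mean and SD of each group in black and axes from 0. The untreated arrays of DNMT3B sit at 4235 to 4917 above all others, those of TET2 at 256 to 308 below all others, and the doxycycline arrays of TET1 at 1925 to 2295 below all others.

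TET2 (probe set 8096669, chr4:105145875-105279803) encodes a 5-methylcytosine dioxygenase and had the largest change among the 9 genes. It read 259, 256 and 308 on the untreated arrays, 646, 477 and 686 on the PS arrays and 597, 431 and 566 on the doxycycline arrays. Every array in PS medium, with or without doxycycline, was above every untreated array, and those with and without doxycycline overlapped. TET2 rose by 1.09 ± 0.15 in PS medium (2.12-fold, adjusted p = 0.000309) and by 0.90 ± 0.15 with doxycycline against untreated cells (1.87-fold, adjusted p = 0.00111). Doxycycline against PS medium gave -0.18 ± 0.15 (adjusted p = 0.494, 95% interval -0.52 to 0.15). The second TET2 probe set (8096675) read 180, 186 and 226 on the untreated arrays, 466, 385 and 548 on the PS arrays and 436, 347 and 473 on the doxycycline arrays. It rose by 1.19 ± 0.14 in PS medium (adjusted p = 9.81e-05 over 19460 probe sets), close to the first.

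TET1 (probe set 7927876, chr10:68560337-68694487) encodes the dioxygenase best known from pluripotent cells. It read 2499, 2552 and 2452 on the untreated arrays, 2794, 2644 and 2861 on the PS arrays and 2162, 1925 and 2295 on the doxycycline arrays. Each doxycycline array was below every other array. TET1 was lower with doxycycline than in PS medium alone by 1.28-fold (log2 -0.36 ± 0.07, adjusted p = 0.00595), and the difference was -0.42 without doxycycline replicate 3 (adjusted p = 0.00316). It was 1.18-fold lower than in untreated cells (-0.23 ± 0.07, adjusted p = 0.0324). That second difference no longer passed without untreated replicate 1 (adjusted p = 0.0914), 2 (0.0900) or 3 (0.0676), or without doxycycline replicate 1 (0.0511) or 2 (-0.15, 0.0959). PS medium differed from untreated cells by 0.12 ± 0.07 (adjusted p = 0.246), although the arrays did not overlap.

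TET3 (probe set 8042811, chr2:73983631-74135498) encodes a dioxygenase known for its role in the zygote and in neural cells. It read 396, 393 and 351 on the untreated arrays, 298, 359 and 379 on the PS arrays and 434, 423 and 406 on the doxycycline arrays. The doxycycline arrays lay above all others, while PS and untreated arrays overlapped. The difference of 0.28 ± 0.10 between doxycycline and PS medium missed the threshold (adjusted p = 0.0734) and passed without PS replicate 3 (0.34, adjusted p = 0.0462). The difference was -0.14 ± 0.10 between PS medium and untreated cells (adjusted p = 0.319) and 0.14 ± 0.10 between doxycycline and untreated cells (adjusted p = 0.328).

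The TET genes were compared in the same way, with tests that could not pass. TET2 minus TET1 rose by 0.96 ± 0.15 (SE) from untreated cells to PS medium, and TET2 minus TET3 by 1.23 ± 0.25. TET3 minus TET1 rose by 0.63 ± 0.14 from PS medium to doxycycline. Each gave the smallest exact permutation p allowed, p = 0.1 (adjusted p = 0.138). Over the DNMT3 and TET families the arrays did not overlap for 1 of 6 pairs in that comparison, and for 6 of 6 pairs in each comparison with untreated cells. The pairs share genes, so they are not separate results, and the share among other pairs of genes was not computed.

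The windows at starts of TET2 and TET1 are shown because TET2 rose in PS medium and TET1 fell with doxycycline. They come from the same RefSeq table, written 5′ to 3′ on the plus strand with CTTTG or CAAAG in capitals. The first TET2 window is chr4:105145625-105145924 and the second chr4:105146626-105146925. The first TET1 window, at the gene's start, is chr10:68560087-68560386. Of 2 further windows at starts inside the gene, chr10:68600224-68600523 is shown, and chr10:68600018-68600317, which overlaps it, is not.
TET2 first start: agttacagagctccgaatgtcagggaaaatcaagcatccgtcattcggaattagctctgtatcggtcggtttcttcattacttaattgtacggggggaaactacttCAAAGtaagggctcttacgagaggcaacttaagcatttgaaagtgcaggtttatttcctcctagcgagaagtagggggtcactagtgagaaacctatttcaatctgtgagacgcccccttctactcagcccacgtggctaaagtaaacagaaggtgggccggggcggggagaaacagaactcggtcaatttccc
TET2 second start: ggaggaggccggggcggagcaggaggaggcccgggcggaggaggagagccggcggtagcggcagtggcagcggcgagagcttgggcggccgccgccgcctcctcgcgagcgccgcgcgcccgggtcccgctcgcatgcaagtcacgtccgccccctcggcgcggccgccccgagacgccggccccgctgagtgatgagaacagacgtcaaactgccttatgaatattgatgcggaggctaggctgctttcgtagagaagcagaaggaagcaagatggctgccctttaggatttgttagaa
TET1 first start: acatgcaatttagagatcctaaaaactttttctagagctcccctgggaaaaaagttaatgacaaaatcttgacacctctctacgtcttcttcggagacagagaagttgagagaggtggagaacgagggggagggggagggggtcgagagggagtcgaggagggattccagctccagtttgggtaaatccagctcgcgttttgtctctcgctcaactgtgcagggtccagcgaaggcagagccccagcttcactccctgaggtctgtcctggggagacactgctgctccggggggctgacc
TET1 inner start: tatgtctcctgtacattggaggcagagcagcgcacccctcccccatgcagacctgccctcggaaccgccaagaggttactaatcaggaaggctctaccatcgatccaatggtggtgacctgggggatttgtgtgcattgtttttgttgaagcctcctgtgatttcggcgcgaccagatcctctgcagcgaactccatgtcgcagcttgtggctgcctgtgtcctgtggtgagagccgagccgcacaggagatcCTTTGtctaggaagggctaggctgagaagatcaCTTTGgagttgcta
The first TET2 window held 1 match, part of CTTTGAA on the minus strand and upstream of the start, and the second held none. The second TET2 window held 35 CG pairs and the first 13, beside the median of 14. The first TET1 window held no match and 10 CG pairs, and the inner one held 2 matches after the start, neither part of a longer form, and 11 CG pairs. The window not shown held 2 matches upstream of its start and 6 CG pairs.

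TDG (probe set 7958147, chr12:103965872-103988874) encodes thymine DNA glycosylase, which removes the bases that TET enzymes oxidise. It read 496, 516 and 443 on the untreated arrays, 682, 800 and 582 on the PS arrays and 674, 802 and 539 on the doxycycline arrays. Both PS groups lay above all untreated arrays and overlapped each other. TDG rose by 0.46 ± 0.15 in PS medium (1.38-fold, adjusted p = 0.0355). It no longer passed without untreated replicate 1 (adjusted p = 0.0821), 2 (0.0575) or 3 (0.118), without PS replicate 1 (0.0891) or 2 (0.121), and without doxycycline replicate 1 (0.0515). With doxycycline TDG differed by -0.05 ± 0.15 from PS medium (adjusted p = 0.882). It differed by 0.42 ± 0.15 from untreated cells, where it missed the threshold (adjusted p = 0.0555). That difference passed with the replicate block (limma adjusted p = 0.00148), without PS replicate 2 (adjusted p = 0.0425) or 3 (0.0321) and without doxycycline replicate 3 (0.56, 0.0133).

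Arrays with the same replicate number deviated together in several of these genes. DNMT1, DNMT3A, DNMT3B, UHRF1 and TDG were highest on replicate 2 in all 3 groups, a pattern that 14.5% of all genes had. DNMT1 and TDG were also lowest on replicate 3 in all 3 groups, as were 4.76% of all genes with the whole pattern. TET2 deviated the other way on replicate 2 of the PS groups, by -0.30 in PS medium and -0.28 with doxycycline on the log2 scale. TET1 was also lowest on replicate 2 of both PS groups, by -0.07 and -0.17 in the same order. DNMT3L was lowest on replicate 1 of each group, by -0.11 in untreated cells, -0.45 in PS medium and -0.34 with doxycycline.

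**Figure D3:**
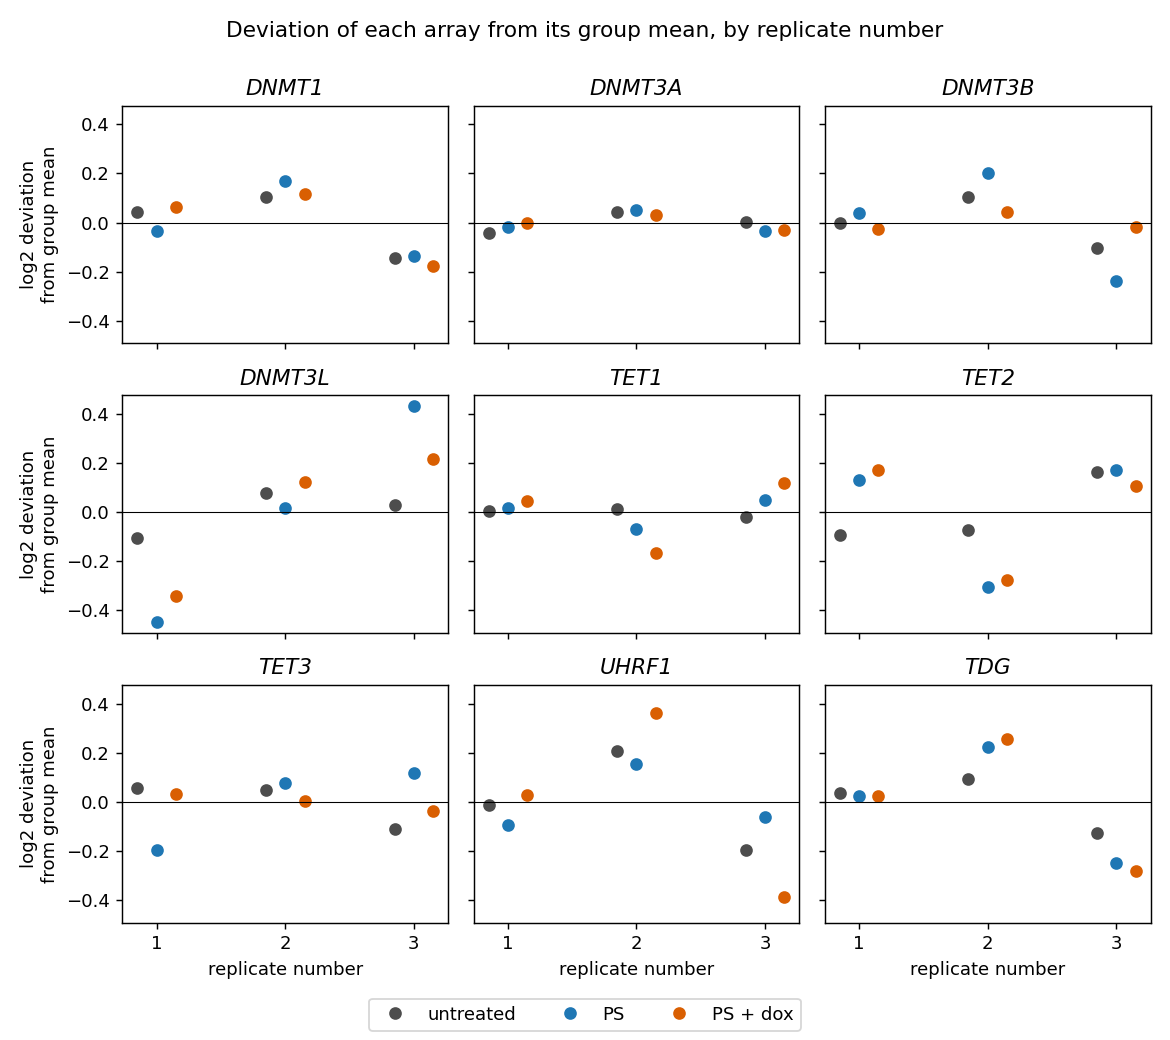
Log2 deviation of each array from the mean of its own group, by replicate number, for the 9 genes, with colours for the groups. TDG and DNMT1 are above 0 on replicate 2 and below 0 on replicate 3 in every group, and TET1 and TET2 are lowest on replicate 2 in both PS groups.

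TET2 was the gene of the 9 whose group means spanned at least 1 on the log2 scale. The genes with the most similar pattern were PLOD2, which encodes a lysyl hydroxylase, DIAPH2, which encodes a formin, and SENP7, which encodes a SUMO protease. Their root mean square differences from TET2 over the 9 arrays, with each gene centred on its own mean, were 0.12, 0.13 and 0.14 on the log2 scale. In PS medium PLOD2 changed by 1.27, DIAPH2 by 0.95 and SENP7 by 0.89.

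Other genes of the pathway were read from lists of related genes. Of all genes, 29.8% were called in PS medium (14.2% higher, 15.7% lower) and 17.3% with doxycycline against PS medium. In PS medium 30% of chromatin partners, 42.9% of methyl-CpG readers, 41.7% of TET partners and 23.5% of repair genes were called. So were 50% of one-carbon genes, 50% of deaminases, 35.7% of replication, 26.7% of germline and 33.3% of imprinted genes. In that order the shares with doxycycline against PS medium were 15%, 14.3%, 41.7%, 17.6%, 21.4%, 62.5%, 0%, 6.67% and 33.3%. Of 20 chromatin partners and modulators, 6 fell and 0 rose in PS medium by limma, with 0 rises also at an unadjusted p under 0.05 (median -0.18). CDCA7L, a relative of the HELLS activator CDCA7, fell 2.17-fold (log2 -1.11 ± 0.12, adjusted p = 6.06e-05), from 2090, 2186 and 2114 to 870, 1145 and 978. ZFP57, a zinc finger protein that protects imprints, was 1.53-fold lower. It was dim, at 142, 135 and 123 on the untreated and 91.0, 83.5 and 63.0 on the PS arrays. HELLS, a chromatin remodeller needed for DNA methylation, was 1.41-fold lower, and EHMT2, a histone methyltransferase, 1.33-fold. From PS medium to doxycycline 1 of the 20 rose and 2 fell (median -0.06). The riser count was 0 without PS replicate 1 or doxycycline replicate 1 or 2 and 2 without PS replicate 3, and 1 fell without doxycycline replicate 1 or 3. CDCA7 was 1.52-fold lower (-0.61 ± 0.09, adjusted p = 0.00120), with 1733, 1804 and 1948 in PS medium and 1154, 1326 and 1088 with doxycycline. Against untreated cells 9 fell and 0 rose by limma, with 0 rises unadjusted, beside 14.9% of all genes called lower and 15.3% higher.

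Of 12 measured TET partners and cofactor genes, 2 rose and 3 fell in PS medium (median -0.04), and 3 rose and 2 fell with doxycycline against PS medium (median 0.05). In PS medium 1 rose without any 1 of the untreated arrays or PS replicate 1. With doxycycline 1 fell without untreated replicate 1, PS replicate 1 or 2, or doxycycline replicate 1 or 3. CXXC4, a CXXC-domain protein known to bind TET2, read 77.8, 104 and 90.8 on the untreated arrays, 12.9, 41.8 and 17.9 on the PS arrays and 300, 235 and 136 on the doxycycline arrays. The 3 groups did not overlap. CXXC4 fell by 1.42 in PS medium (SE 0.29, adjusted p = 0.00358, -0.80 with a log offset of 64) and rose by 2.57 ± 0.29 with doxycycline (5.95-fold, adjusted p = 0.000144, 1.68 with that offset). PRDM14, a factor of pluripotent and germ cells, fell 2.07-fold in PS medium (adjusted p = 0.00109). With doxycycline it rose 2.10-fold against PS medium (adjusted p = 0.00168) and differed by 0.02 ± 0.18 from untreated cells. Its doxycycline arrays read 1006, 974 and 1546, and without replicate 3 these differences were 0.85 (adjusted p = 0.00167) and -0.19 (adjusted p = 0.332). CXXC5, another CXXC-domain protein, rose 1.35-fold in PS medium, and IDH1, which makes the TET cofactor 2-oxoglutarate, was 1.38-fold lower with doxycycline than in PS medium.

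Of 17 base excision repair and GADD45 genes, 2 rose and 2 fell in PS medium (median -0.05), and 1 rose and 2 fell with doxycycline against PS medium (median -0.09). In PS medium 1 fell without untreated replicate 1 or 3 or PS replicate 1 or 2. With doxycycline 0 rose without PS replicate 1 or doxycycline replicate 2 and 3 rose without PS replicate 3, and 1 fell without PS replicate 1 or 2 or doxycycline replicate 1 or 3. GADD45A, a stress protein also linked to demethylation, rose 2.16-fold in PS medium (1.11 ± 0.08, adjusted p = 3.77e-06). It was 1.60-fold lower with doxycycline than in PS medium (adjusted p = 0.000250), and GADD45B rose 1.74-fold in PS medium. Of 7 measured methyl-CpG readers, 3 rose in PS medium (median 0.22) and 0 fell, whether limma's p was adjusted or not, led by ZBTB38 (1.42-fold) and MBD1 (1.36-fold). Doxycycline cells had 1 reader higher than in PS medium and 0 lower by limma, also 0 before adjustment (median 0.04). The 1 was MBD2 (0.24, adjusted p = 0.0232), which no longer passed without PS replicate 2 (0.0580) or 3 (0.0578) or doxycycline replicate 1 (0.0849) or 3 (0.0606). Of 14 measured one-carbon genes, which supply the methyl donor, 2 rose and 5 fell in PS medium (median -0.09), or 3 fell without PS replicate 1. SHMT1, a serine hydroxymethyltransferase, rose 1.75-fold and TYMS 1.40-fold, while the dim BHMT fell 1.60-fold and AHCY 1.28-fold. From PS medium to doxycycline 3 one-carbon genes fell and 0 rose by limma, with 4 rises unadjusted (median -0.01), led by MTHFD2, a mitochondrial folate enzyme, at 1.44-fold lower. Without PS replicate 2 there was 1 rise, and without doxycycline replicate 3 there were 2.

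Of 8 measured cytidine deaminases, enzymes that edit cytosine in nucleic acids, 4 rose in PS medium (median 0.77) and 0 fell by limma, against 1 that fell at an unadjusted p under 0.05 or, adjusted, without PS replicate 1, and 5 fell and 0 rose with doxycycline against PS medium by limma, with 0 rises unadjusted (median -0.68). APOBEC3G read 128, 127 and 198 on the untreated arrays, 2310, 2120 and 4930 on the PS arrays and 393, 583 and 549 on the doxycycline arrays. It rose 18.0-fold in PS medium (4.17 ± 0.29, adjusted p = 2.18e-06) and was 5.67-fold lower with doxycycline than in PS medium (adjusted p = 0.000182). APOBEC3D and APOBEC3F, which resemble it, rose 2.82-fold and 2.85-fold in PS medium, and probe sets of such near copies may not separate them.

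Of 28 DNA replication genes, with which DNMT1 and UHRF1 are known to be made in S phase, 3 rose and 7 fell in PS medium (median -0.13). These counts moved when any of several arrays was left out: 1 rose without untreated replicate 3 or PS replicate 1 or 2. The falls numbered 3, 2 and 4 without untreated replicate 1, 2 and 3, 2 and 3 without PS replicate 1 and 3, and 3 without doxycycline replicate 1. With doxycycline against PS medium 0 rose and 0 fell by limma, with 2 rises and 0 falls at an unadjusted p under 0.05 (median 0.01). CCNE2, a cyclin of S-phase entry, rose 1.94-fold in PS medium. Of 15 measured germline genes known to be held silent by promoter methylation, 1 rose and 3 fell in PS medium (median -0.06). DAZL, a germ cell RNA-binding protein, fell 5.28-fold (-2.40 ± 0.13, adjusted p = 3.94e-07), from 1043, 1364 and 1080 to 216, 240 and 169, and was at 229, 227 and 249 with doxycycline. On the untreated arrays DAZL and TUBA3C (876, 782 and 962) read above the array medians of 200.4 to 216.5. The name of the list therefore does not say that its genes were silent in these cells, and methylation was not measured. BRDT, a testis bromodomain protein, rose 3.70-fold in PS medium (adjusted p = 0.00204) and was 3.48-fold lower with doxycycline than in PS medium. It was dim outside PS medium, at 43.8, 44.3 and 49.0 on the untreated and 36.5, 48.3 and 62.0 on the doxycycline arrays. The PS arrays read 126, 156 and 453, with replicate 3 far above the others. Over the alternatives run its log2 rise in PS medium ran from 1.35 to 2.23. Of the 15, 0 rose with doxycycline against PS medium by limma, and 0 unadjusted, and BRDT was the 1 that fell (median -0.05), or 1 of 2 without doxycycline replicate 3. Of 15 measured imprinted genes, 3 rose and 2 fell in PS medium (median 0.06; 5 rose without doxycycline replicate 3), with MEST 1.56-fold lower and PEG10 1.58-fold higher. With doxycycline against PS medium 4 rose and 1 fell (median -0.05), the latter GRB10 at 1.52-fold lower. The 4 rises became 2 without PS replicate 1 or 2 or doxycycline replicate 3, and 1 without doxycycline replicate 1 or 2, and the falls became 2 without PS replicate 1 or 2.

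**Figure D4:**
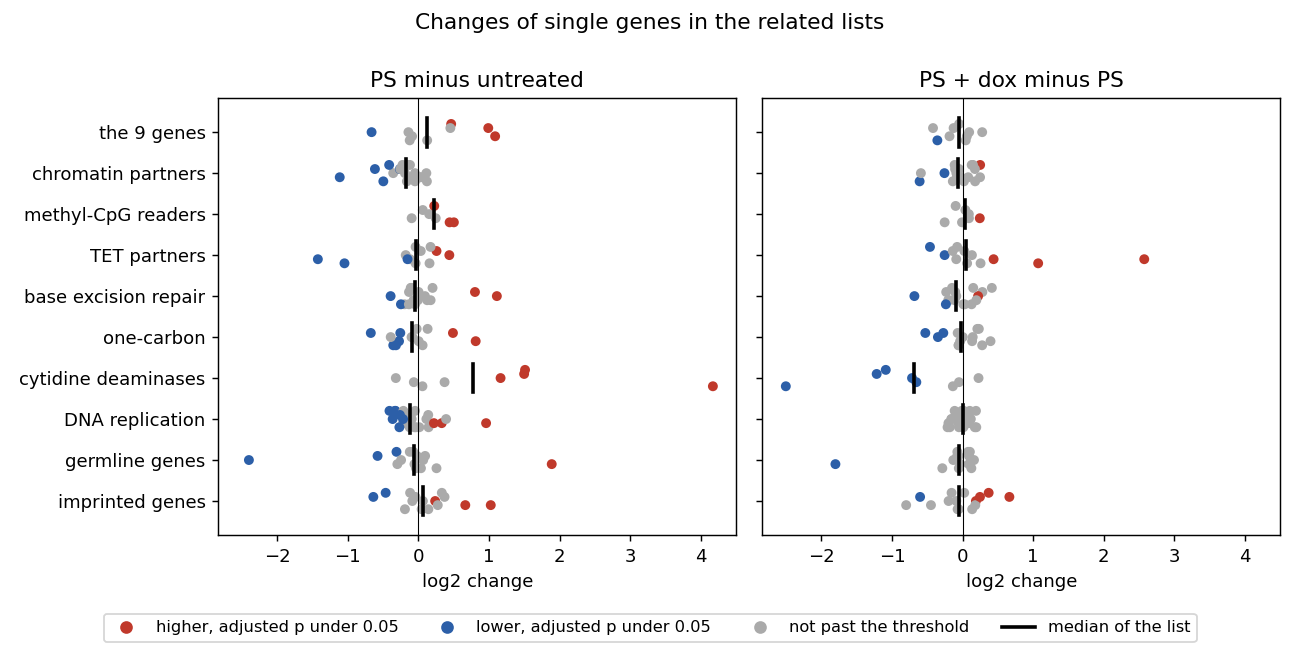
Log2 change of single genes (points) in the 9 genes and the related lists, for PS against untreated arrays and for doxycycline against PS arrays. Black bars are list medians, and colours mark genes past the threshold; the cytidine deaminases have medians of 0.77 and -0.68, and the other lists have medians between -0.18 and 0.22.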

How the data were processed

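RNA of 9 samples, 3 for each group, was hybridised to Affymetrix arrays; groups and replicate numbers were taken from the sample titles. The deposited values are probe set intensity on a linear scale, made by the authors with Affymetrix Expression Console 1.1.1 and the PLIER 2.0 summary, per the submitters' processing notes. No source used here gives their background correction or between-array normalization. Array medians ran from 200.4 to 216.5, and the number of arrays limits the precision.

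Of 33297 probe sets, 19460 had 1 gene symbol in the platform annotation, 1754 several and 12083 none listed. By gene number 19429 were matched to RefSeq (GRCh38.p14), and 31 kept the annotation's symbol. Each of 18417 genes was read from its probe set with the highest mean. Values were taken as log2(intensity + 16), quantile-normalized and fitted with limma 3.58.1 in R 4.3.3 (1 mean per group, eBayes with a trend, 6 residual degrees of freedom), with Benjamini-Hochberg adjustment over all genes. Fold changes on this scale understate those of dim genes. The limma fit was tested on simulated gene values for doxycycline against PS medium, with noise drawn separately for each array. The log step, the normalization and the choice of probe set were not part of that test. Plots used matplotlib 3.10.9.

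Genes outside the 9 were named from the 4 largest changes past the threshold in each list and comparison, and not every such gene is named. Also named were the 3 genes nearest in pattern to a gene of the 9 whose group means spanned at least 1. TCF7L1 was named as the induced gene, and TUBA3C, which was not called, for its reading on the untreated arrays. The 9 genes and the lists were chosen with earlier results of these data known.

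Same-numbered arrays had deviations that correlated, over genes, at 0.245, 0.428 and 0.246 between PS medium with and without doxycycline and at 0.246, 0.309 and 0.297 between doxycycline and untreated cells. There the numbers were taken to pair the arrays, which rests on these correlations alone, and the fit with the replicate number as a block is given where it changed a call. Alternatives were the values as deposited, median centring, offsets of 1 and 64, no dim genes (the lowest 25%), other uses of multiple probe sets, fits of 2 groups, no trend, the block and leaving out each array.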

Additional observations from a re-analysis of the deposited data

How the results depend on the processing

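Each change of the 9 genes was recomputed under 19 alternatives (18 for DNMT3L, which the filter on dim genes removed). Of the 8 called changes, 6 kept direction and call under all alternatives run, and TDG in PS medium and TET1 with doxycycline against untreated cells did not. Over all alternatives the fall of DNMT3B in PS medium ran from -0.76 to -0.54, the rise of TET2 from 0.97 to 1.24, that of DNMT3L from 0.68 to 1.21, and the fall of TET1 with doxycycline against PS medium from -0.42 to -0.27. TET1 with doxycycline against untreated cells was also lost without a trend (adjusted p = 0.0577), which left 1 gene of the 9 lower there. With doxycycline against untreated cells, 2 of the 9 were called higher, in place of 1, on values as deposited, with median centring, with an offset of 1 and without dim genes, 3 were in a fit of those groups alone, and 4 were with the replicate block. With the replicate block 2 of the 9 were lower with doxycycline than in PS medium, in place of 1.

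Leaving out single arrays gave 1 to 2 of the 9 lower and 0 to 1 higher with doxycycline against PS medium, and 1 to 2 lower and 1 to 3 higher against untreated cells; the cause of these moves was not tested beyond the fewer arrays in each fit. Signs turned for changes that were not called. With doxycycline against PS medium, leaving out single arrays gave DNMT1 -0.022 to 0.14 (-0.022 without PS replicate 3, -0.012 without doxycycline replicate 2), DNMT3B -0.026 to 0.19 (lowest without PS replicate 3), UHRF1 -0.31 to 0.068 (highest without doxycycline replicate 3), TDG -0.18 to 0.093 (0.093 without doxycycline replicate 3, 0.06 without PS replicate 2) and DIAPH2 -0.23 to 0.089 (above 0 without PS replicate 3 or doxycycline replicate 2). Against untreated cells DNMT1 ran from -0.15 to 0.011 (highest without doxycycline replicate 3), and DNMT3A was 0.021 with median centring.

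Between PS medium and untreated cells the same-number correlations were 0.0857, 0.397 and 0.271. Each of the 6 arrays correlated best with its own number. Both groups were taken to pair with the doxycycline arrays, so their arrays may pair with each other as well. With the replicate block 4 of the 9 were called higher between PS medium and untreated cells, UHRF1 included (limma adjusted p = 0.00379). Over all genes the block called more as well: 3269 higher and 3666 lower there, in place of 2608 and 2887. With doxycycline it called 2341 higher and 2140 lower against PS medium, and 3571 and 3484 against untreated cells. In all 3 comparisons the calls given first come from the fit without the block. Of the related lists' counts over all alternatives, 901 stayed within 1.5 times and 125 did not. The block changed no other call of the 9 genes than those given here and in the results.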
